A study of Mus musculus with 6 samples.

Results

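The 34 genes described here encode the enzymes of glycolysis, the carriers of lactate, and the factors and targets of the hypoxia response. They were chosen by name from the 21959 genes of the count table, and their RNA was compared between MPC and MPC-PTX, with 3 libraries per line. MPC is a mouse gastric adenocarcinoma line of genotype CDH1-/-;Trp53-/- and served as the untreated control. MPC-PTX has the same genotype and was raised from MPC through over 30 cycles of paclitaxel (PTX), a drug that stabilises microtubules and arrests dividing cells. Both lines go back to gastric organoids of a C57BL/6J mouse with floxed Trp53 and Cdh1 alleles (flox/flox for each) and the tamoxifen-inducible Mist1-CreER driver, in which both genes were deleted ex vivo, and to a subcutaneous tumour grown from them in BALB/c nude mice. Each line was selected as a single clone, so resistance to PTX and a difference between clones cannot be told apart. All 6 libraries carry the batch number 1 in the labels, which leave unsaid if each replicate was a culture of its own, so the p-values measure only the spread between these libraries, which may be technical. Both lines were grown in the same medium in the same kind of incubator, and no exposure to low oxygen is named.

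Glycolysis splits glucose into pyruvate in a chain of cytosolic steps. Glucose transporters and hexokinases bring glucose in and trap it, phosphofructokinase is the main control point of the upper part, and the lower part yields ATP and pyruvate, which lactate dehydrogenase converts to lactate for export by monocarboxylate carriers. Most steps can be run by several isoenzymes from separate genes, which differ in their regulation and tissue distribution. HIF-1 alpha (Hif1a) and HIF-2 alpha (Epas1) are transcription factor subunits that the prolyl hydroxylases Egln1 and Egln3 mark for destruction when oxygen is present. This control acts on the protein, which an RNA count does not show. When the factors accumulate they raise many glycolytic genes, the angiogenic factor Vegfa and the hydroxylases themselves, Egln3 among the most inducible. Tumour cells often run glycolysis at a high rate with oxygen present, known as the Warburg effect.

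The libraries held 16574580 to 23148182 counts with 13897 to 14295 genes detected, and the first principal component, 76.5% of the variance, separated the lines. The replicates were not equally close, with a biological coefficient of variation of 17.9% in MPC and 3.01% in MPC-PTX, and MPC replicate 3 stood apart from its group. Across genes, its deviation had a Spearman's rho of -0.58 with GC content and 0.47 with transcript length. The 34 genes took 1.08% to 1.29% of the counts of a library. Cdh1 and Trp53, labelled as knocked out in both lines, still had 2217 to 3068 and 63 to 142 counts per library, which does not show which exons the reads covered. The epithelial markers Epcam, Krt8, Krt18 and Krt19 were abundant in every library, while the gastric genes Tff1, Tff2, Gkn2 and Pgc were at 0 counts in all 6 libraries and Muc5ac, Muc6 and Gkn1 had at most 2. Other gastric genes of the list were expressed, with 3411 to 5859 counts per library for Cldn18 and 575 to 782 for Gata4. Ctse had 4387 to 6009 counts in MPC and 29 to 32 in MPC-PTX, and Anxa10 had 1681 to 3059 and 4 to 10. Of the 13 tested genes in the list of gastric epithelial markers, 11 were lower in MPC-PTX and 1, Sox2, was higher. The summed level of that list was 10087 to 11594 CPM (counts scaled to a common library size) in MPC and 6096 to 6256 CPM in MPC-PTX, and the part of this shift in the results below was not tested. The fibroblast, leukocyte and endothelial lists summed to between 8.30 and 12.8 CPM in every library. Of the endothelial genes, Egfl7 had 91 to 125 counts per library, Kdr 36 to 50 and Vwf 10 to 33, while Pecam1, Cdh5, Tek and Emcn had at most 9 and Cldn5 was at 0. Of the leukocyte genes Cd68 had 150 to 242 counts per library and Ptprc at most 6, and of the fibroblast genes Col1a1 had 58 to 122 and Pdgfra 58 to 115.

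Of the 34 genes, 31 had enough counts to be tested in both lines together. With the quasi-likelihood test of edgeR and p-values adjusted by Benjamini and Hochberg over all 11795 tested genes, 5 were higher in MPC-PTX at an adjusted p below 0.05 (Pfkm, Pfkp, Aldoc, Egln1 and Vegfa), 6 were lower (Hk1, Pfkl, Tpi1, Egln3, Ndrg1 and P4ha2) and 20 did not pass. The 11 called genes are 35.5% of the 31, beside 29.7% of all tested genes (14.1% higher and 15.6% lower). The list as a whole therefore passed the test about as often as the background, and in both directions. The median log2 fold change of the 31 genes was 0.07, beside 0.04 for all tested genes, and 18 of the 31 had a positive value, beside 55.2% of all tested genes. Most differences were small, with 24 of the 31 at an absolute log2 fold change below 0.5. Only Vegfa and Egln3 passed an absolute log2 fold change of 1 as well, a rule that 7.73% of all tested genes met (3.54% higher and 4.2% lower), and Vegfa sat at its edge. The rule of the study's methods, the same fold limit with an unadjusted p below 0.05, called the same pair, beside 8.11% of all tested genes (3.77% higher and 4.34% lower). The libraries of the lines did not overlap in CPM for 16 of the 31 genes, 7 of them higher and 9 lower in MPC-PTX, beside 46.9% of all tested genes (24.2% higher and 22.7% lower).

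**Figure D1:**
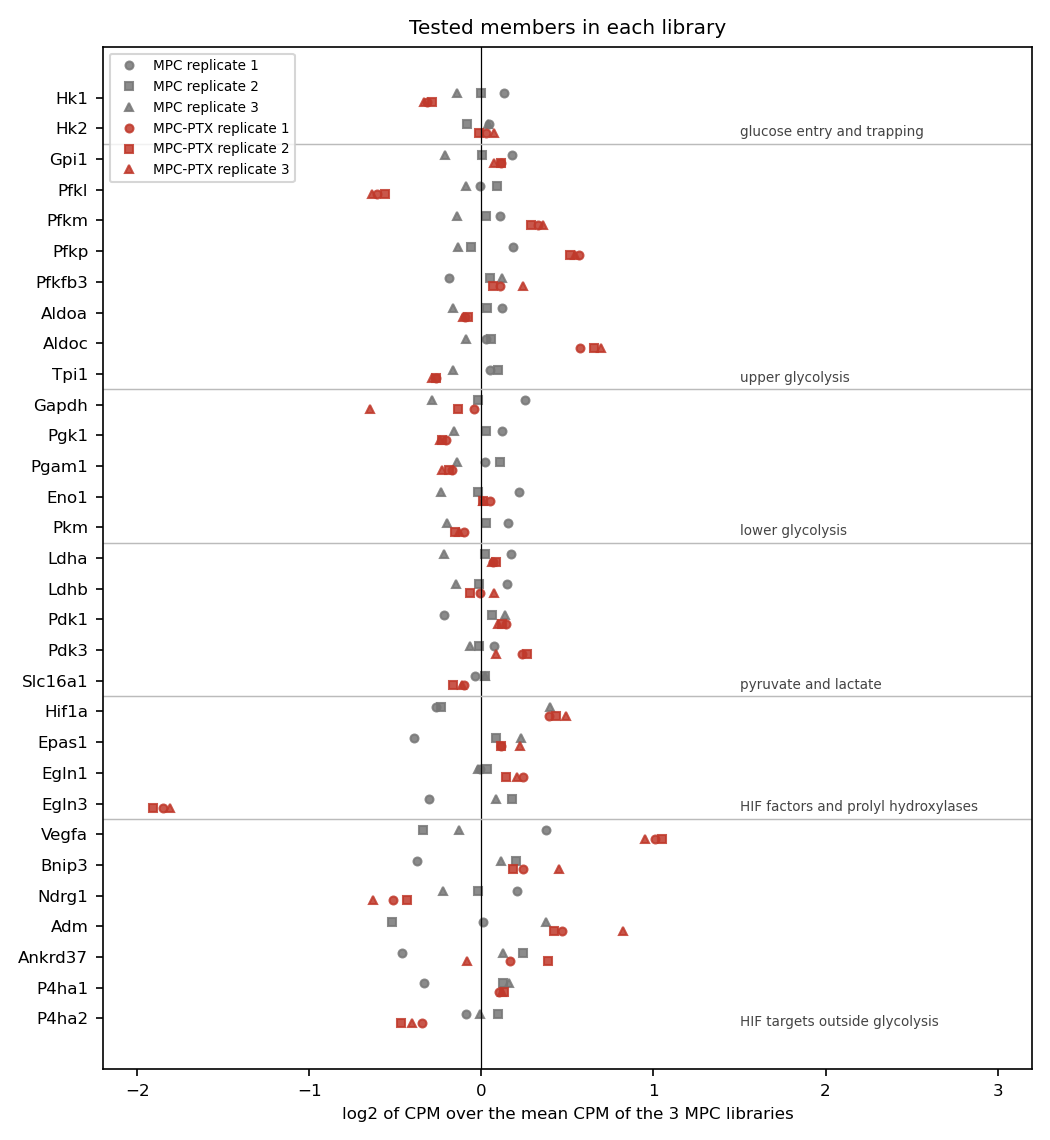
Level of the 31 tested genes in each of the 6 libraries, as the log2 of CPM over the mean CPM of the 3 MPC libraries (horizontal axis), in grey for MPC and red for MPC-PTX, grouped by role from glucose entry to HIF targets. Egln3 lies far to the left and Vegfa far to the right in MPC-PTX, most glycolytic genes lie within 0.5 of the MPC mean, and the grey points spread more widely than the red ones.

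MPC replicate 3 differed from the other MPC libraries in these genes too. Among the 20 tested genes of glycolysis, pyruvate and lactate, 16 were lower in MPC replicate 3 than in the mean of MPC replicates 1 and 2, with a median log2 difference of -0.21. Among the 11 tested genes of the hypoxia response, 4 were lower, with a median of 0.20. Over all tested genes 50.5% were lower. Without this library, 16 of the 31 genes were called, beside 52.5% of all genes tested then (25.4% higher and 27.1% lower), so the share of the list again lay near the background. Of these 16 genes, 10 were also called with all libraries. Aldoa, Pgk1, Pgam1, Pkm and Slc16a1 were added to those lower in MPC-PTX and Hif1a to those higher, while Egln1 was lost (adjusted p = 0.0552). After the libraries were corrected for the GC content and length of transcripts, 13 of the 31 genes were called, beside 41.6% of all tested genes (21% higher and 20.6% lower). Pdk3, Hif1a (adjusted p = 0.00331) and Pgk1 were added by this correction, and Pfkp was lost (adjusted p = 0.185). Egln3, Vegfa, Pfkl, Pfkp and Aldoc were called whichever of the 6 libraries was left out, with adjusted p of at most 0.0308. Leaving out MPC replicate 2, or any 1 of the MPC-PTX libraries, ended the calls of Hk1, Pfkm and Ndrg1, with adjusted p then between 0.0556 and 0.104. Tpi1 was lost without any 1 library other than MPC replicate 3 (adjusted p 0.0572 to 0.145), Egln1 without any 1 other than MPC replicate 1 (0.0552 to 0.176), and P4ha2 without MPC-PTX replicate 2 (0.0528).

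The RefSeq promoter windows of these genes (GRCm38.p6, from 250 bases before to 50 after each annotated start) hold the letters of the hypoxia response element often. The core searched was ACGTG or GCGTG on either strand, and it was found in 36 of the 45 windows of the 31 matched genes, or 80%, beside 43.8% of the 32851 windows of all genes. ACGTG alone was found in 55.6% of the windows and in 19.6% of all windows. The E-box CACGTG, which contains ACGTG and is the site that MYC and the carbohydrate response factors bind, was found in 13.3% and 7.15%. The windows of these genes are richer in G and C, with a median of 62.3% beside 52.7% in all windows, and the core itself is rich in G and C. A match is a string of letters and does not show that a factor binds there. The core was present in at least 1 window of 5 of the 5 genes called higher, 4 of the 5 called lower with a window, and 18 of the 19 not called, so genes of every outcome carried it. Eno2, Gpi1 and Tpi1 had no match in their windows.

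Stretches of 120 bases from 6 of these promoters are shown to set genes of different outcome beside each other: Ldha and Pgk1, textbook HIF targets that did not pass the test, Egln3 and Pfkl, which fell, and Pfkp and Aldoc, which rose. They were chosen after the values were seen. All lie upstream of the annotated start and read 5′ to 3′ on the strand of the gene, with the core in capitals on either strand. The positions are chr7:46845684-46845803 (plus strand) for Ldha, chrX:106186911-106187030 (plus) for Pgk1, chr12:54204005-54204124 (minus) for Egln3, chr10:78009845-78009964 (minus) for Pfkl, chr13:6648772-6648891 (minus) for Pfkp and chr11:78322953-78323072 (plus) for Aldoc.
Ldha: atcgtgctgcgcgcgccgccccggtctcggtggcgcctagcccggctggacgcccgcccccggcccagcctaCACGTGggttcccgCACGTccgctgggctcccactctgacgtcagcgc
Pgk1: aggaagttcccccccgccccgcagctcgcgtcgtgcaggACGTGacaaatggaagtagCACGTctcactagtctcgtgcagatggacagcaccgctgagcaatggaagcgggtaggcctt
Egln3: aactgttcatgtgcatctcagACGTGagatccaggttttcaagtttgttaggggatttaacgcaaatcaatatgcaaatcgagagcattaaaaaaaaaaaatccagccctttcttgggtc
Pfkl: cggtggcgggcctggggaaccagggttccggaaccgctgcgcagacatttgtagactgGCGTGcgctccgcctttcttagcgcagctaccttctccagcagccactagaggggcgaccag
Pfkp: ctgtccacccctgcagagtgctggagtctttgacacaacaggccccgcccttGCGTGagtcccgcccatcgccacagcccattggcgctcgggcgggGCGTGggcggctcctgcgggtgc
Aldoc: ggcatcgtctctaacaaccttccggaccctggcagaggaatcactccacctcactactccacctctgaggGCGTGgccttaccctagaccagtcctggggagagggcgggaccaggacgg
Ldha carries 3 matches in its stretch, the first pair of them overlapping in the E-box CACGTG, and Pgk1 carries ACGTG on both strands. Pfkl, Pfkp and Aldoc carry only the GCGTG form in these stretches, and Egln3 a single ACGTG far from the start.

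Egln3, a HIF prolyl hydroxylase that is itself a HIF target, showed the largest difference of the 31 genes. The gene (chromosome 12 of GRCm38, 54178981 to 54203860) was at 52.8, 73.7 and 69.3 CPM in the MPC libraries and at 18.1, 17.4 and 18.6 CPM in the MPC-PTX libraries. Every MPC-PTX library was below every MPC library, and the lowest MPC library was still far above them. It fell in MPC-PTX (log2 fold change -1.86, standard error 0.13, Benjamini-Hochberg adjusted p = 0.00012 by edgeR's quasi-likelihood test). This call held under each of the 15 alternative settings.

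Egln1, the broadly expressed hydroxylase that sets HIF-1 alpha levels in most cells, went the other way by a small step. It stood at 145, 149 and 144 CPM in MPC and at 173, 161 and 168 CPM in MPC-PTX, without overlap. The log2 fold change was 0.20 (standard error 0.06, adjusted p = 0.0393), close to the threshold. The call was lost under 11 of 15 alternatives, among them DESeq2, its size factors, no filter on low counts and at least 10 counts in every sample. Within the pair, the log2 ratio of Egln3 to Egln1 differed by -2.04 between the lines, a 4.10-fold shift, with an exact two-sided permutation p of 0.1. That is the smallest p that 3 libraries against 3 allow, so no single ratio could pass, and the value adjusted over 11 pairs was 0.157. Per length of exons, Egln3 made up 37.5% ± 3.90 (SD, n = 3) of the summed level of both genes in MPC and 12.7% ± 0.301 (SD, n = 3) in MPC-PTX.

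Hif1a was the most variable of the factors within MPC. It was at 99.2 and 101 CPM in MPC replicates 1 and 2, at 157 CPM in MPC replicate 3, and at 156, 161 and 168 CPM in MPC-PTX. The third MPC library thus lay at the level of the MPC-PTX libraries, and the lines overlapped. The log2 fold change was 0.44 (95% interval 0.02 to 0.86, adjusted p = 0.112) with all libraries. It was 0.64 without MPC replicate 3 (adjusted p = 1.36e-05) and 0.29 after correction for GC content and length (adjusted p = 0.00331), so the size and the call of this difference rested on 1 library and on the correction. Hif1a has the lowest GC content of the list, with 41.3% in its longest transcript beside a median of 51.9% over the tested members. Epas1, the HIF-2 alpha gene, was at 57.9 to 89.0 CPM in MPC and 81.9 to 88.4 CPM in MPC-PTX and did not pass the test (log2 fold change 0.15, 95% interval -0.21 to 0.50, adjusted p = 0.495).

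**Figure D2:**
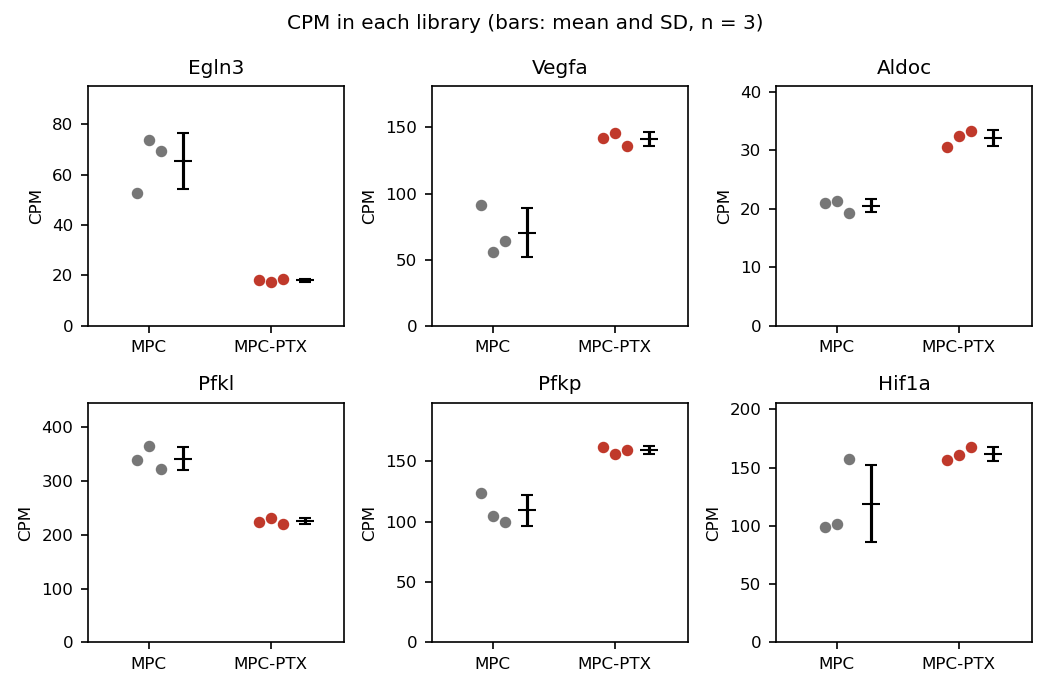
CPM of Egln3, Vegfa, Aldoc, Pfkl, Pfkp and Hif1a in each library (points, grey for MPC and red for MPC-PTX), with the mean and SD of 3 libraries beside them and every vertical axis starting at 0. The lines do not overlap for the first 5 genes, and for Hif1a the third MPC library, at 157 CPM, reaches the MPC-PTX level.

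Vegfa, the main angiogenic growth factor downstream of HIF, showed the largest rise of the list. The gene (chromosome 17, 46016993 to 46032369) was at 91.4, 55.6 and 64.2 CPM in MPC and at 142, 146 and 136 CPM in MPC-PTX. All MPC-PTX libraries were above all MPC libraries, of which replicate 1 was the nearest. The log2 fold change was 1.01 (standard error 0.18, adjusted p = 0.00652), a 2.01-fold rise with a 95% interval of 0.59 to 1.42 on the log2 scale.

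The other HIF targets outside glycolysis split. Ndrg1, a stress-induced gene linked to differentiation, was at 37.0, 31.7 and 27.4 CPM in MPC and 22.5, 23.7 and 20.7 CPM in MPC-PTX, and it fell (log2 fold change -0.52, standard error 0.12, adjusted p = 0.0186). P4ha2, a catalytic subunit of the collagen prolyl hydroxylase, was at 67.6, 76.9 and 71.6 CPM in MPC and 56.6, 52.2 and 54.5 CPM in MPC-PTX, and it fell too (log2 fold change -0.40, standard error 0.08, adjusted p = 0.00788). Its paralogue P4ha1 was at 33.4 to 46.9 CPM in MPC and 45.1 to 46.1 CPM in MPC-PTX and did not pass. P4ha1 made up 46.7% ± 3.55 of the per-length level of the pair in MPC and 56.0% ± 1.28 in MPC-PTX (SD, n = 3). Which gene of the pair led depends on the length used. The merged exons of P4ha2 (6239 bases) are longer than those of P4ha1 (4114), while its longest transcript is shorter (3060 beside 4043 bases). In CPM, P4ha2 was above P4ha1 in every library. Bnip3, a mitochondrial protein that promotes mitophagy, had a log2 fold change of 0.30 (95% interval -0.08 to 0.67), and Ankrd37, a small ankyrin repeat protein, had one of 0.17 (95% interval -0.35 to 0.69). Adm, which encodes the vasodilator peptide adrenomedullin, was close to the limit of detection with 5 to 10 counts in the MPC libraries and 11 or 12 in MPC-PTX.

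Of the genes for glucose entry, Hk1 fell and Hk2 did not pass the test. Hk1, the housekeeping hexokinase, was at 181, 165 and 150 CPM in MPC and 133, 135 and 131 CPM in MPC-PTX. The groups did not overlap, and the log2 fold change was -0.31 (standard error 0.08, adjusted p = 0.0232). Hk2, the inducible hexokinase typical of tumours, was at 126 to 137 CPM in MPC and 132 to 140 CPM in MPC-PTX, a log2 fold change of 0.03 with a 95% interval of -0.12 to 0.18. Hk2 made up 53.6% ± 2.63 of the per-length level of the pair in MPC and 59.3% ± 1.10 in MPC-PTX (SD, n = 3). The merged exons of Hk1 span 8532 bases beside 4278 for its longest transcript, and those of Hk2 5969 beside 5513. These shares, and which gene led, thus depend on the length used. The log2 ratio of Hk2 to Hk1 differed by 0.34 (exact two-sided permutation p = 0.1, 0.157 adjusted over 11 pairs). Slc2a3, a glucose transporter of neurons and some tumours, had 1 to 10 counts per library and was not tested.

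Phosphofructokinase was the step at which isoenzymes moved in opposite directions. Pfkl, the liver type (chromosome 10, 77986947 to 78010083), was at 339, 364 and 321 CPM in MPC and at 224, 231 and 220 CPM in MPC-PTX. All 3 MPC-PTX libraries lay well below the MPC range, and Pfkl fell (log2 fold change -0.60, standard error 0.07, adjusted p = 0.000728). Pfkp, the platelet type (chromosome 13, 6579768 to 6648777), was at 124, 105 and 99.3 CPM in MPC and at 162, 156 and 160 CPM in MPC-PTX. It rose without overlap (log2 fold change 0.54, standard error 0.09, adjusted p = 0.00448), but not after correction for GC content and length (log2 fold change 0.33, adjusted p = 0.185). Its exons overlap those of Pitrm1 on the opposite strand over 748 bases. Pfkm, the muscle type (chromosome 15, 98092589 to 98132451), was at 58.8, 55.7 and 49.5 CPM in MPC and at 68.6, 66.7 and 70.2 CPM in MPC-PTX, and it rose (log2 fold change 0.33, standard error 0.08, adjusted p = 0.0241).

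Per length of exons, Pfkl made up 67.6% ± 1.94 of the summed phosphofructokinase level in MPC and 51.0% ± 1.16 in MPC-PTX (SD, n = 3). The share of Pfkm went from 21.6% ± 0.927 to 31.0% ± 0.880, and that of Pfkp from 10.8% ± 1.04 to 18.0% ± 0.359 (SD, n = 3). Pfkl thus stayed the leading gene in every library, as it was in CPM. The size of these shares depends on the length used. Merged exons and longest transcript span 6675 and 3730 bases for Pfkl, 3340 and 2879 for Pfkm, and 13401 and 8681 for Pfkp. The summed level of the family was 75.7 ± 4.66 CPM per kilobase in MPC and 66.1 ± 0.212 in MPC-PTX (SD, n = 3). The log2 ratio of Pfkp to Pfkl differed by 1.15, and that of Pfkm to Pfkl by 0.93, each with an exact two-sided permutation p of 0.1. Pfkfb3, the enzyme that makes the activator fructose 2,6-bisphosphate, had a log2 fold change of 0.14 (95% interval -0.09 to 0.37) and did not pass.

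**Figure D3:**
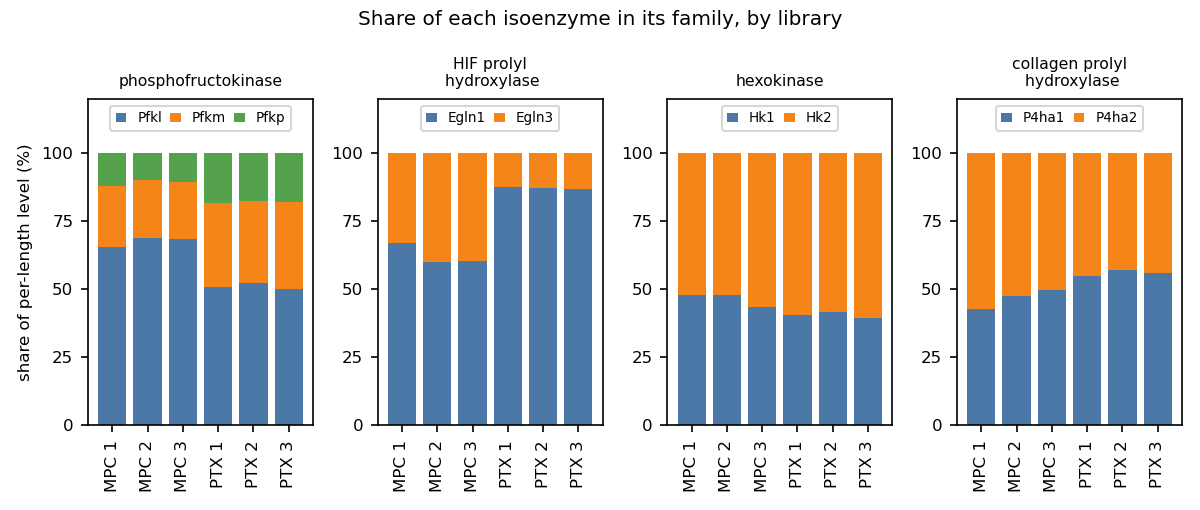
Share of each isoenzyme gene in the summed per-length level of its family (vertical axis, percent), as stacked bars for the 6 libraries, with PTX 1 to 3 standing for MPC-PTX replicates 1 to 3. Pfkl falls from 67.6% to 51.0% of phosphofructokinase and Egln3 from 37.5% to 12.7% of the prolyl hydroxylase pair, while the hexokinase and collagen hydroxylase shares move by less than 10 percentage points. The phosphofructokinase, hexokinase and collagen hydroxylase shares depend on the length used.

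At the aldolase step, Aldoc rose while Aldoa did not pass the test. Aldoc, the brain type (chromosome 11, 78322968 to 78327781), was at 20.9, 21.3 and 19.3 CPM in MPC and at 30.5, 32.4 and 33.3 CPM in MPC-PTX. It rose without overlap (log2 fold change 0.64, standard error 0.08, adjusted p = 0.00157). Aldoa, the major form, was at 583 to 711 CPM in MPC and 608 to 621 CPM in MPC-PTX and did not pass (log2 fold change -0.09, 95% interval -0.28 to 0.10). Aldoc remained a minor form, at 2.73% ± 0.157 of the per-length level of the pair in MPC and 4.45% ± 0.197 in MPC-PTX (SD, n = 3). The name Aldoa stood on a further row of the table with 6 to 21 counts per library, which was left out. Tpi1, which interconverts the triose phosphates, was at 1331, 1374 and 1147 CPM in MPC and 1069, 1071 and 1051 CPM in MPC-PTX, and it fell without overlap by a small step (log2 fold change -0.27, standard error 0.08, adjusted p = 0.0402). Gpi1, the isomerase before phosphofructokinase, had a log2 fold change of 0.10 (95% interval -0.13 to 0.33).

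Lower glycolysis, from glyceraldehyde phosphate to pyruvate, held none of the called genes, with 0 of 5 tested past an adjusted p of 0.05 by edgeR or by DESeq2 beside 29.7% of all tested genes, and 2, Pgk1 and Pgam1, at an unadjusted p below 0.05 in edgeR. The log2 fold change was -0.25 for Gapdh (95% interval -0.71 to 0.21), -0.23 for Pgk1 (-0.42 to -0.03), -0.20 for Pgam1 (-0.37 to -0.02), 0.02 for Eno1 (-0.24 to 0.29) and -0.13 for Pkm (-0.35 to 0.10). The intervals of Pgk1 and Pgam1 lay below 0, and their libraries did not overlap, with adjusted p of 0.0794 and 0.0894. This count rested on MPC replicate 3, since without it Pgk1, Pgam1 and Pkm were called lower, with adjusted p of 6.2e-05, 0.000448 and 0.000523. Pgk1 was also called lower after the correction for GC content and length (adjusted p = 0.018). Gapdh, often used as a reference gene, varied within both lines, from 531 to 772 CPM in MPC and from 412 to 629 CPM in MPC-PTX. It had the highest coefficient of variation of the 31 genes in MPC-PTX, 21.2%, beside a median of 3.02%. Eno2, the neuronal enolase, had 0 to 9 counts per library and was not tested.

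**Figure D4:**
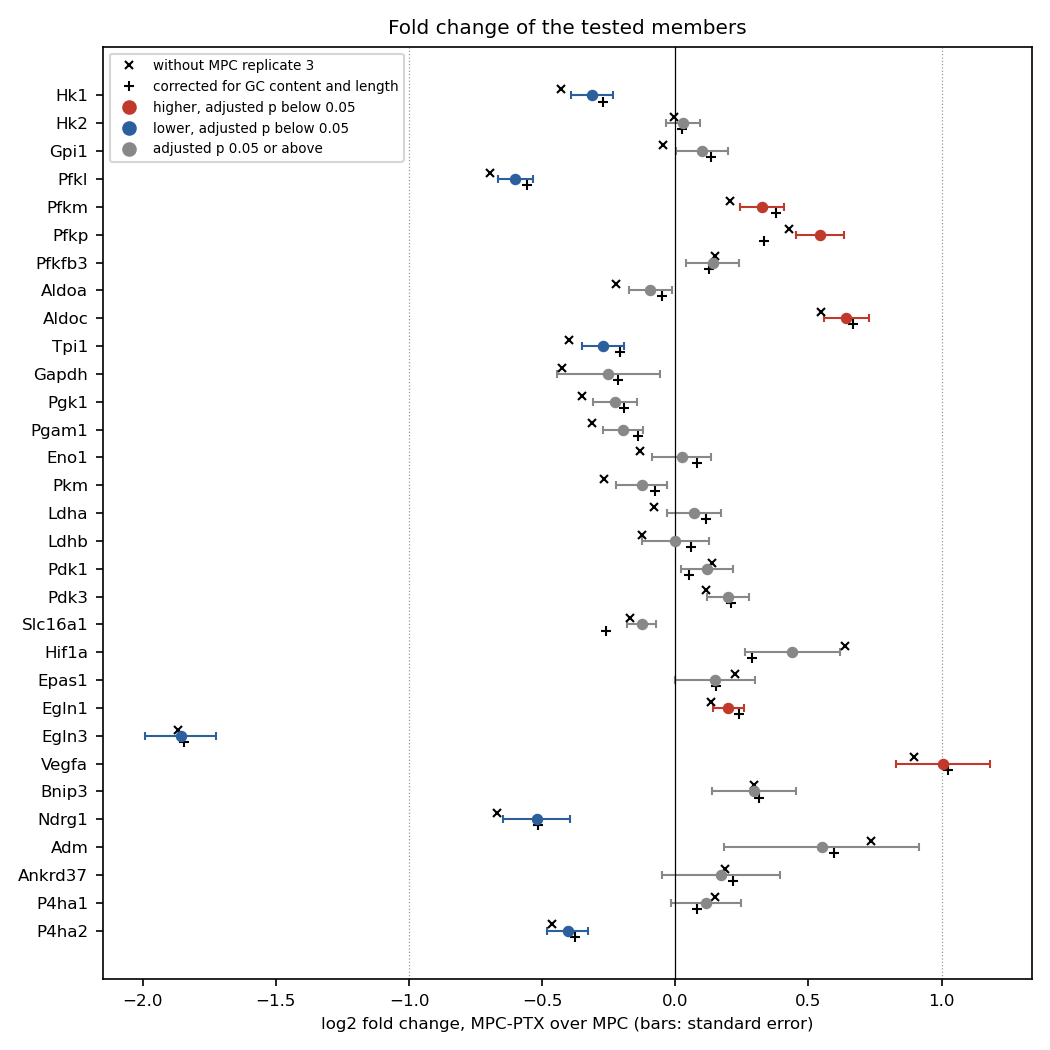
Log2 fold change of the 31 tested genes, MPC-PTX over MPC (horizontal axis; points with bars of 1 standard error, red where higher and blue where lower at an adjusted p below 0.05, grey otherwise), with the value without MPC replicate 3 (crosses) and after correction for GC content and length (plus signs). Without MPC replicate 3 most glycolytic genes shift to the left and Hif1a shifts to the right, from 0.44 to 0.64.

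The tested members that handle pyruvate and lactate also held no called gene, with 0 of 5 past the adjusted threshold by edgeR or DESeq2 beside 29.7% of all tested genes, and 1, Pdk3, at an unadjusted p below 0.05 in edgeR. Ldha, which turns pyruvate into lactate, was at 1855, 1671 and 1416 CPM in MPC and at 1724, 1746 and 1716 CPM in MPC-PTX, so the MPC-PTX libraries lay inside the MPC range. Its log2 fold change was 0.07 with a 95% interval of -0.17 to 0.31. Ldha held 99.2% of the per-length level of the Ldha and Ldhb pair in both lines, and Ldhb, the heart form, was at 5.96 to 7.33 CPM across the 6 libraries. Pdk1 and Pdk3, kinases that shut pyruvate out of the mitochondrial dehydrogenase, had log2 fold changes of 0.12 (95% interval -0.11 to 0.35) and 0.20 (0.01 to 0.38, adjusted p = 0.105). Pdk3 was called higher after the correction for GC content and length (adjusted p = 0.0374). Slc16a1, the lactate carrier MCT1, was at 386 to 402 CPM in MPC and 354 to 370 CPM in MPC-PTX without overlap, yet the difference was small (log2 fold change -0.13, 95% interval -0.25 to 0.00070, adjusted p = 0.123, and 0.0123 without MPC replicate 3). Slc16a3, the carrier MCT4 that is induced by HIF-1 in many tumours, had 1 to 9 counts per library and was not tested, so nearly all reads of this carrier pair came from Slc16a1 in both lines.

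Ranked by CPM per kilobase of merged exons, the most abundant members were Pgk1, Ldha, Tpi1, Pkm and Eno1. The order depends on the length used. Merged exons and longest transcript span 2244 and 1825 bases for Pgk1, 3310 and 1815 for Ldha, and 5001 and 2432 for Pkm. In MPC, Pgk1 led at 718 ± 69.7 CPM per kilobase (SD, n = 3), followed by Ldha at 498 ± 66.7, Tpi1 at 466 ± 43.8, Pkm at 404 ± 49.8 and Eno1 at 264 ± 41.7. The ranges of Ldha, Tpi1 and Pkm overlapped from each to the next, as did those of Eno1, Pgam1 and Aldoa. By this measure alone, Pgk1 lay above all others in every MPC library. The same 5 genes led in the same order in MPC-PTX. Pgk1 stood at 614 ± 7.70 CPM per kilobase there and Ldha at 522 ± 4.69 (SD, n = 3). Egln3 went from rank 13 of 34 in MPC to rank 27 in MPC-PTX and Vegfa from rank 18 to 13, although the MPC ranges of neighbours in this middle part mostly overlapped. Reads of Gapdh, Ldha, Pgk1, Pgam1 and Aldoa may be shared with processed copies that the annotation names after them, so their levels are uncertain. Only names with the ending -ps or -rs were searched. Eno1b, also named after a member, had a row of its own with 282 to 436 counts per library, and whether Eno1 shares reads with it was not tested. The exons of 12 of the 34 genes overlap another annotated gene, among them 22.7% of the exon bases of Ankrd37 and 22.3% of those of Bnip3, and the use of strand in counting is not given in the sources used here.

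The genes around each called gene were examined to see whether the difference was shared along the chromosome. Over all tested genes, 29.7% were called (14.1% higher and 15.6% lower), and several of the shares below lie near or under that. Within 1 Mb of Pfkl, 13 of 20 tested neighbours were called by edgeR, all of them lower in MPC-PTX, with a median log2 fold change of -0.41 beside -0.60 for Pfkl itself. Around Egln1, 12 of 18 neighbours were higher and 1 lower, with a median of 0.30 beside 0.20 for Egln1. These differences were thus shared with the neighbourhood in sign and, for Egln1, in size. Around Egln3, 4 of 9 neighbours were called, all lower, with a median of -0.23, far from the -1.86 of Egln3. Vegfa (8 of 40 higher, 1 lower, median 0.13) and Aldoc (6 of 41 higher, 2 lower, median 0.16) also exceeded their neighbours. Pfkp had only 2 tested neighbours, with a median of -0.28, opposite in sign to its own 0.54. Ndrg1 had 2 of 4 neighbours called, both lower, with a median of -0.36 beside its own -0.52. Around Hk1, 1 of 23 was higher and 6 were lower (median -0.10 beside -0.31), and around Tpi1, 2 of 31 were higher and 3 lower (median -0.08 beside -0.27). Pfkm had 5 of 31 higher and 4 lower (median 0.02 beside 0.33), and P4ha2 had 4 of 26 higher and 4 lower (median 0.07 beside -0.40). Eno1 had 9 of 20 neighbours called, all higher, with a median of 0.40 beside its own 0.02. Copy number was not measured, and its part in these values was not tested.

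**Figure D5:**
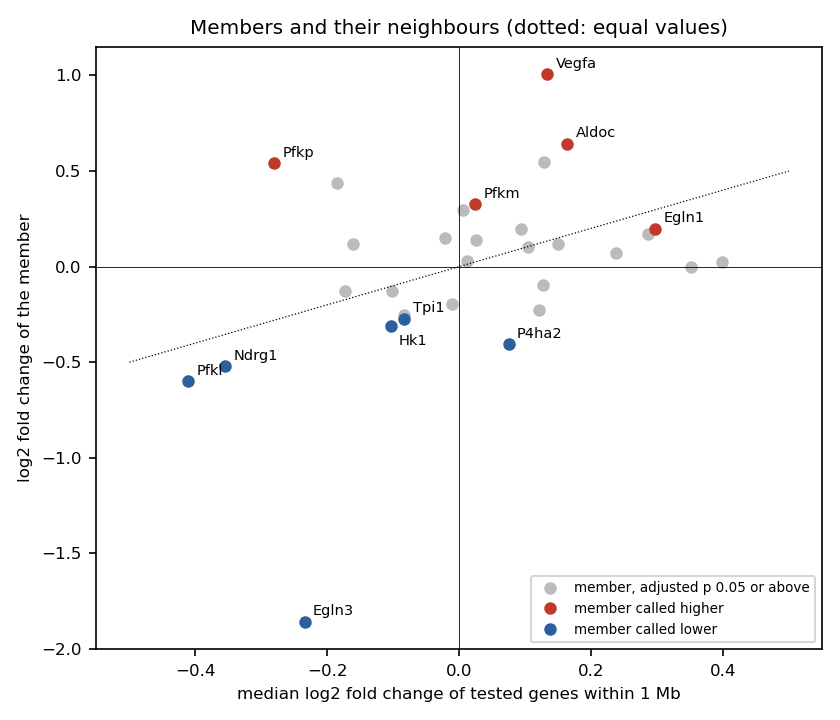
Log2 fold change of each of the 31 tested genes (vertical axis) against the median over the tested genes within 1 Mb of it (horizontal axis), in red and blue for genes called higher and lower and grey for the rest, with a dotted line where the values are equal. Of the called genes, Egln1, Ndrg1, Tpi1, Pfkl and Hk1 lie nearest the line, while Egln3, Vegfa, Pfkp, P4ha2 and Aldoc lie farthest from it.

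A wider list of 155 genes of the same pathways was read beside the 34. Of these, 125 were tested, and 22 were higher and 22 lower in MPC-PTX at an adjusted p below 0.05, together 35.2% beside 29.7% of all tested genes, with a median log2 fold change of 0.08. The other HIF targets contributed most, with 13 higher and 7 lower of 40 tested and a median of 0.19. Without MPC replicate 3, 35 of these 125 genes were higher and 36 lower, together 56.8% beside 52.5% of all genes tested then. The pentose phosphate pathway had 1 of 10 tested genes called, Rpia, which was lower, and the remaining members of the HIF control system had 1 of 11, Cul2, which was higher.

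Several further HIF targets rose past a log2 fold change of 1. Stc2, a secreted glycoprotein of the stress response, was at 60.2, 56.9 and 52.6 CPM in MPC and 154, 155 and 147 CPM in MPC-PTX (log2 fold change 1.43, adjusted p = 2.97e-05). Plod2, which hydroxylates lysine in collagen, was at 8.02, 7.99 and 7.78 CPM in MPC and 18.2, 18.5 and 19.4 CPM in MPC-PTX (log2 fold change 1.23, adjusted p = 0.000126). Ak4, a mitochondrial adenylate kinase, was at 25.3, 33.3 and 28.2 CPM in MPC and 65.5, 61.6 and 62.7 CPM in MPC-PTX (log2 fold change 1.13, adjusted p = 0.000411). For all 3 genes the lines did not overlap. Car12, a cell surface carbonic anhydrase, rose from 1.09 ± 0.239 to 3.64 ± 0.273 CPM, and Rcor2, a corepressor, from 6.33 ± 1.04 to 13.3 ± 0.795 CPM (SD, n = 3). Nos2, the inducible nitric oxide synthase, was called higher but had only 2 or 3 counts in each MPC library and 17 to 19 in MPC-PTX.

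Among the enzymes and regulators, Me1, the cytosolic malic enzyme that makes NADPH, was at 301, 327 and 328 CPM in MPC and 147, 147 and 149 CPM in MPC-PTX and fell (log2 fold change -1.11, adjusted p = 3.54e-05). Txnip, an inhibitor of glucose uptake whose RNA follows sugar phosphate levels, fell from 126, 189 and 173 CPM to 64.0, 61.6 and 58.0 CPM (log2 fold change -1.41, adjusted p = 0.000683). Both were without overlap between the lines. Mlxipl, the carbohydrate response factor ChREBP, had 3 to 9 counts in the MPC libraries and 33 to 39 in MPC-PTX and was called higher (adjusted p = 0.00258). Mycn, a MYC family transcription factor, fell from 19.1, 26.1 and 26.6 CPM to 11.7, 12.3 and 9.09 CPM (log2 fold change -1.12, adjusted p = 0.00298). Pdk4, the starvation-induced kinase of pyruvate dehydrogenase, fell from 2.97 ± 0.306 to 0.577 ± 0.458 CPM (SD, n = 3). Pklr, the liver type pyruvate kinase, had 33 to 48 counts in the MPC libraries and 0 to 3 in MPC-PTX (adjusted p = 0.00101), and Ppp1r3b, a glycogen targeting subunit, 18 to 37 and 4 to 10 counts (adjusted p = 0.00728). Eno3, the muscle enolase, rose from 19.9 ± 6.59 to 41.6 ± 2.69 CPM, and Slc2a6, a glucose transporter family member, from 1.06 ± 0.390 to 2.43 ± 0.366 CPM (SD, n = 3).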

How the data were processed

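RNA of 3 MPC and 3 MPC-PTX libraries was measured. Libraries were poly-A selected, and the authors cleaned the reads (fastp 0.22.0), aligned them (HISAT2) and deposited raw read counts per gene, neither normalized nor pooled. The genome release, annotation, counting tool, use of strand and treatment of reads with several positions are not given in the sources used here. Values in the series table were identical to those in the tables of single samples. The study calls the lines MTC and MTC-R.

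From the deposited counts, 11795 of 21959 genes passed filterByExpr (minimum count 10) and were tested with edgeR 4.0.16 (TMM, glmQLFit with robust estimation, glmQLFTest, R 4.3.3), with Benjamini-Hochberg adjustment. The standard error is the log2 fold change divided by the square root of F, and 95% intervals used the degrees of freedom of the edgeR fit. CPM used TMM-scaled library sizes, and the per-length level is CPM per kilobase of merged exons (GENCODE M21, GRCm38, by Ensembl identifier). Isoenzyme ratios (log2 CPM, prior count 2) were compared with exact two-sided permutation tests. All 34 members were named, and genes of the wider lists if called at an adjusted p of 0.05 with a log2 fold change beyond 1 in either direction. Not every gene that meets this rule is reported here. Members and lists were chosen with earlier results of these data known, and the 6 promoters, the gene neighbourhoods and the exon overlaps were added after the values were seen.

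The libraries held 16574580 to 23148182 counts, and intervals cover the spread between libraries only. No pair of libraries agreed within sampling noise. On simulated counts (11699 genes, of which 200 had a set log2 difference of 1.5), edgeR recovered 94.0% and 5.05% of its calls were false, while DESeq2 1.42.0 recovered 94.5% with 18.5% false. The simulation took its dispersions from the edgeR fit and used the same ones for both lines. The real lines differed, with a biological coefficient of variation of 17.9% in MPC and 3.01% in MPC-PTX. These rates, and the gap between the tools, therefore need not hold for the real data. Alternatives were DESeq2, scaling by its size factors or by library size, dropping the low-count filter or asking for 10 counts in each library, a replicate block, a loess correction for GC content and length (span 0.3), both of these together, glmTreat, and each library left out in turn.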

Additional observations from a re-analysis of the deposited data

How the results depend on the processing

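Egln3 was called lower under each of the 15 alternatives, and Pfkl, Aldoc and Vegfa under all but glmTreat, which tests against a log2 fold change of 1 and left 0 members higher and 1 lower. The 5 members called higher became 3 with at least 10 counts in every sample, and the ranges over left-out libraries were 3 to 5 higher and 2 to 11 lower. The widest change came without MPC replicate 3, with 11 lower, and the narrowest without MPC-PTX replicate 2, with 2 lower. By the adjusted p with the fold limit, and by the rule of the study's methods, the 1 higher gene, Vegfa, became 0 with DESeq2, DESeq2 size factors, no filter, at least 10 counts in every sample and glmTreat, and 0 to 1 with a library left out. In the wider list, 4 genes were higher and 2 lower under glmTreat, and 14 to 35 higher and 13 to 36 lower with a library left out. These counts, too, stand beside those over all tested genes given above. The median log2 fold change of the members was 0.016 with at least 10 counts in every sample and ranged from -0.045 to 0.079 with a library left out.

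Members near 0 changed sign. Hk2 was at -0.0054 with DESeq2, -0.0053 with its size factors, -0.0028 with at least 10 counts in every sample, and -0.012 to 0.051 with a library left out. Eno1 was at -0.012 with DESeq2 and with its size factors, -0.011 with at least 10 counts in every sample, and -0.13 to 0.15 with a library left out. Ldhb, at -0.00023, was at 0.039 with library size alone, 0.059 with the GC content and length correction and -0.12 to 0.079 with a library left out. Leaving out a library also turned Gpi1 (-0.045 to 0.20), Ldha (-0.080 to 0.16), Epas1 (-0.013 to 0.22), Ankrd37 (-0.0087 to 0.31), P4ha1 (-0.025 to 0.18) and the log2 ratio of Pdk3 to Pdk1 (-0.034 to 0.21). The cause of these changes was not tested.

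The replicate numbers are shared between the lines, and the deviations of same-numbered libraries correlated at 0.15, -0.03 and 0.18. Spearman's rho of the deviations with GC content was 0.47 in MPC and 0.27 in MPC-PTX for replicate 1. It was 0.35 and -0.01 for replicate 2, and -0.58 and -0.27 for replicate 3. Whether a shared number stands for shared handling was not tested. With the replicate block, 12 members were called, 10 of them also without it (Hif1a and Gapdh added, Egln1 lost), and Ldhb was at 0.00084. These 12 are 38.7% of the 31, beside 29.7% of all tested genes with the block (15.2% higher and 14.6% lower). With the block and the GC correction together, 15 were called and Ldhb was at 0.059. The GC correction alone already raised the share of all tested genes called to 41.6%. A larger count with this correction is therefore not by itself a property of the list. Depth limits Slc2a3, Eno2, Slc16a3 and Adm, each with at most 12 counts in a library.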
